A study of Mus musculus with 24 samples.

Results

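The effect of added lactate on the transcriptome of activated CD8 T cells was read from 6 RNA-seq libraries of the 24 in the series: 3 from cells given sodium lactate and 3 from cells given sodium chloride (NaCl). All genes that passed a low-count filter were taken, which left 14749 of 55401. The cells were CD8 T cells of C57BL/6J mice, purified with magnetic beads from spleen and lymph nodes and activated in culture with anti-CD28 and interleukin-2. Cells of the lactate group received 20 mM lactate from day 2 to day 3, and cells of the NaCl group received 20 mM NaCl over the same time; the sample titles name the lactate as its sodium salt, so sodium was added in both. The series also holds pyruvate libraries (20 mM sodium pyruvate), libraries of lactate with Oxyrase (an oxygen-consuming enzyme preparation) and ATAC-seq of the same treatments, 3 libraries per group and assay. Whether replicates are separate animals or cultures is not given in the sources used here, so p-values measure the spread between these samples, which may be technical. The RNA table was deposited as adjusted counts, and what was adjusted is not given in those sources. Of 460 genes with a non-whole value above 1, 448 were at 0 throughout 1 replicate number, and same-numbered lactate and NaCl libraries deviated from their group means in opposite directions (correlations of -0.21 to -0.14). An adjustment for replicate number would leave both patterns, and if one was made, every p-value of the RNA comparisons below is too small.

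Lactate is the end product of glycolysis and accumulates in tumours and inflamed tissue. It crosses the plasma membrane with a proton through monocarboxylate transporters, and lactate dehydrogenase interconverts it with pyruvate, consuming or producing NADH. Activated CD8 T cells make interferon-gamma, which signals back on the cells through JAK kinases. Its targets include the transcription factor IRF1, guanylate-binding proteins, immunity-related GTPases and the machinery that loads peptides on MHC class I.

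The 3 lactate libraries held 28382900, 37344400 and 39122000 counts, and the 3 NaCl libraries held 32793300, 32183100 and 26036300 counts. The leading principal component of the 6 libraries held 32.0% of the variance and separated the groups. Levels are CPM, counts scaled to the library's total over the genes tested, after adjustment by a TMM scaling factor. For the cell markers the total over all genes was used in its place. Levels are not divided by gene length. Changes are log2 fold changes ± SE of lactate over NaCl from edgeR's quasi-likelihood test. Rose and fell are used of genes with an adjusted p, over all genes tested, under 0.05. In all, 1140 genes (7.73%) changed, 532 higher (3.61%) and 608 lower (4.12%) with lactate. The changes were small: the median size among changed genes was 0.26 on the log2 scale, 171 changed by at least 1.5-fold and 63 by at least 2-fold. Dropping NaCl 1 left 529 called genes, dropping NaCl 2 left 451, dropping lactate 2 left 513 and dropping lactate 3 left 670. The CPM of the groups did not overlap in 4046 genes (27.4%), a share to read beside each statement of no overlap below.

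The summed level of 8 CD8 T cell markers was 2202 to 2273 CPM in lactate libraries, against 2272 to 2333 CPM in NaCl libraries, and 0 of the 8 changed. Of other cells, the summed CD4 T cell markers stood at 4.85 to 5.71 CPM with lactate and at 6.02 to 6.65 CPM with NaCl. Foxp3 made up most of that sum, at 4.06, 3.41 and 4.46 CPM with lactate and 4.79, 3.92 and 4.66 CPM with NaCl. The 9 B and plasma cell markers summed to 193 to 200 CPM with lactate and to 204 to 214 CPM with NaCl. Ighm, the IgM heavy chain, made up nearly all of that sum, at 194, 189 and 186 CPM with lactate and 207, 198 and 207 CPM with NaCl. The 13 myeloid and dendritic markers summed to at most 1.98 CPM with lactate and 2.10 CPM with NaCl, and 4 of them were at 0 in all 6 libraries. The part of these small differences in the results below was not tested. In bulk RNA, fewer cells of a type and less RNA per cell cannot be told apart.

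**Figure D1:**
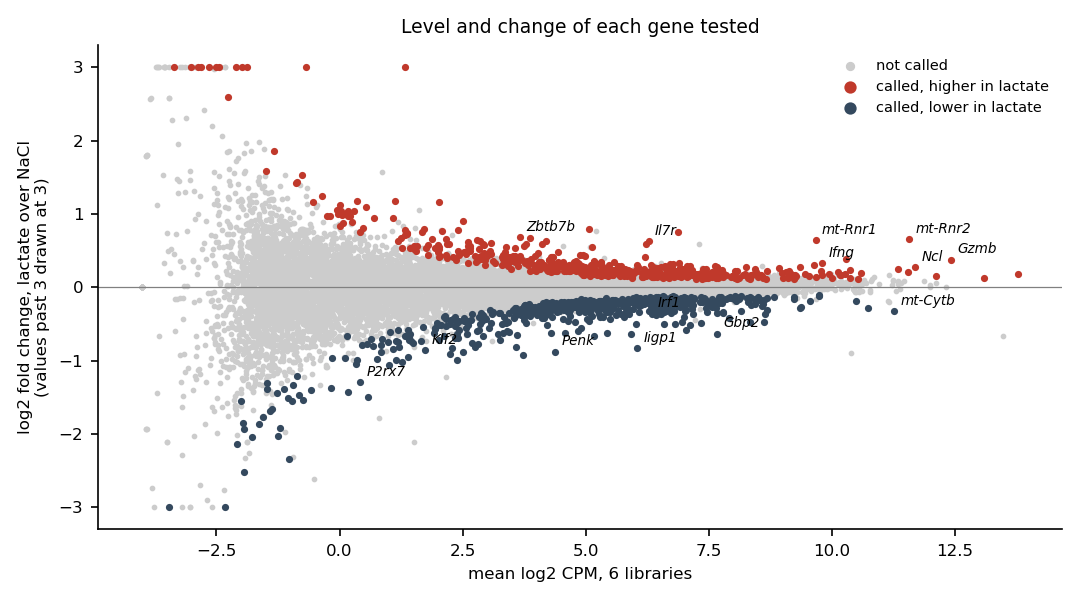
Each point is 1 of the 14749 genes, with its mean log2 CPM over the 6 libraries on the x axis and its log2 fold change, lactate over NaCl, on the y axis. The 532 genes higher (red) and 608 lower (dark blue) with lactate lie mostly close to 0, with larger changes at low levels.

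Many genes induced by interferon fell with lactate, while the interferon-gamma transcript itself rose. The interferon-induced GTPases had the lowest median of 39 gene lists. These lists were chosen with earlier results of these data known, so the rank and the shares called below are descriptions and not tests. Of 20 interferon-induced GTPases tested, 0 rose and 12 fell with lactate (60%, against 7.73% of all genes). The median of the 20 was -0.41, against 0.00 for all genes. These GTPases attack the vacuoles and membranes of intracellular pathogens. Under every alternative tried, 11 to 15 of them fell.

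The promoters of 4 of these genes are shown because letters of an interferon response element can be seen in them. They are 300-base windows around the annotated start (RefSeq, GRCm38.p6), 5′ to 3′ on the gene's strand, for Gbp2 (chr3:142620413-142620712, plus strand), Gbp5 (chr3:142496684-142496983, plus strand), Tgtp1 (chr11:48992197-48992496, minus strand) and Tgtp2 (chr11:49064163-49064462, minus strand). Capitals mark matches to the core of the interferon-stimulated response element (ISRE), which is GAAA, any 2 bases and GAAA, on either strand.
Gbp2: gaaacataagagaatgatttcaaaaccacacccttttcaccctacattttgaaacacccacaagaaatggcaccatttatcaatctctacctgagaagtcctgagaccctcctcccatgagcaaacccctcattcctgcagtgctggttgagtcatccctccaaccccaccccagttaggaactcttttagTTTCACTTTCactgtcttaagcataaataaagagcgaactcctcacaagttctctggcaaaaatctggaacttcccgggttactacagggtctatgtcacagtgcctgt
Gbp5: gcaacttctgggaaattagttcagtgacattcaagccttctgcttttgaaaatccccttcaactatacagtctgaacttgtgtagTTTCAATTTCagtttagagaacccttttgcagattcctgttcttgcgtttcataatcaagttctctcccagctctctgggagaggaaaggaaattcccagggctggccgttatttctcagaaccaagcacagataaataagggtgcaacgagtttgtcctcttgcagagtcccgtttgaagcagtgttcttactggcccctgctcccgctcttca
Tgtp1: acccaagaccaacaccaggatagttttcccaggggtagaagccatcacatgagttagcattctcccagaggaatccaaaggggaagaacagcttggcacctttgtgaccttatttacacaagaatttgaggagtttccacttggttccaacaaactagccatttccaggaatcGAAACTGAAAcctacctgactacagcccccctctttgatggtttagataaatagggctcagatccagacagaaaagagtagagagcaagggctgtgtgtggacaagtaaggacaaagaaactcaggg
Tgtp2: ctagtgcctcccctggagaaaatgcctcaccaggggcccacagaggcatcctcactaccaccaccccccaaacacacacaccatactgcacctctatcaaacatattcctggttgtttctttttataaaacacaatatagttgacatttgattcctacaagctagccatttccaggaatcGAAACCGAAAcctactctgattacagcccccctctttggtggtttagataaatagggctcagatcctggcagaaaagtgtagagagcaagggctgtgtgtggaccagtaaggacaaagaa

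The ISRE core was found in 7 of the 8 GTPases that fell and have an entry in the promoter table (87.5%), against 3.44% of all 32851 promoters of the same length. The first share counts a gene once if any of its entries holds the core, whereas the second counts every promoter entry. Of the GTPases that were not called, 2 have an entry, and both hold the ISRE core. In Gbp2 the ISRE core lies at -59 from the start, in Tgtp1 at -77, in Tgtp2 at -70 and in Gbp5 at -165. Ifi47, which fell too, is the promoter without it. A match describes the letters and is not a site.

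Gbp2 (ENSMUSG00000028270, chr3:142620663-142638008 in GRCm38.p6), a guanylate-binding protein, had 168, 167 and 155 CPM with lactate, against 259, 249 and 252 CPM with NaCl. All 3 lactate libraries lay below all 3 NaCl libraries, and the gene fell by 0.63 ± 0.04 (adjusted p = 1.4e-07). Gbp5 (ENSMUSG00000105504), which also promotes inflammasome assembly, had 112, 106 and 98.8 CPM with lactate and 145, 145 and 148 CPM with NaCl, again without overlap. It fell by 0.47 ± 0.04 (adjusted p = 1.17e-05).

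Immunity-related GTPases were among the 12 that fell. Iigp1 (ENSMUSG00000054072) had 47.7, 51.6 and 48.3 CPM with lactate, against 78.6, 95.9 and 89.0 CPM with NaCl, and fell by 0.83 ± 0.08 (adjusted p = 6.98e-06). Ifi47 (ENSMUSG00000078920) had 111, 104 and 107 CPM with lactate and 158, 164 and 159 CPM with NaCl, and fell by 0.58 ± 0.04 (adjusted p = 7.19e-07). Neither pair of groups overlapped. Tgtp1 (-0.50 ± 0.04) and its neighbour Tgtp2 (-0.64 ± 0.06) also fell; they are near-identical copies, so the share of reads given to each is uncertain. Both kept the call under every alternative, as did Gbp2, Gbp5, Iigp1 and Ifi47.

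Upstream of these genes the picture was mixed. Ifng (ENSMUSG00000055170), which encodes interferon-gamma, had 970, 1053 and 980 CPM with lactate, against 771, 854 and 771 CPM with NaCl. The groups did not overlap, and Ifng rose by 0.32 ± 0.06 (adjusted p = 0.0066). Irf1 (ENSMUSG00000018899, chr11:53770014-53778374), a transcription factor that interferon induces, had 72.9, 68.2 and 73.0 CPM with lactate and 89.9, 93.5 and 91.5 CPM with NaCl. It fell by 0.36 ± 0.04 (adjusted p = 3.55e-05). Jak2 (ENSMUSG00000024789), a kinase of the receptor, fell by 0.28 ± 0.05 (adjusted p = 0.00259).

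In antigen processing and MHC class I, 2 of 22 members tested rose and 8 fell (45.5% called, against 7.73% of all genes). Erap1 (ENSMUSG00000021583, chr13:74639573-74693205), which trims peptides in the endoplasmic reticulum, had 156, 159 and 157 CPM with lactate, against 198, 200 and 197 CPM with NaCl. The groups were far apart relative to their spread, and Erap1 fell by 0.33 ± 0.03 (adjusted p = 1.18e-05). Tap1 (-0.33 ± 0.05), a subunit of the peptide transporter, Tapbp (-0.36 ± 0.04), or tapasin, Tapbpl (-0.33 ± 0.04), the tapasin-like editor, and Psme2 (-0.20 ± 0.04), a proteasome activator, fell too. The light chain B2m had 707, 826 and 728 CPM with lactate and 791, 734 and 774 CPM with NaCl, with overlapping groups (adjusted p = 0.831). H2-Q6 rose by 0.28 ± 0.06 (adjusted p = 0.00788), but it shares reads with near-identical class I genes and its value is uncertain. Without 1 library, 5 to 8 members fell, the fewest without NaCl 2.

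Of 38 type I interferon-stimulated genes tested, 0 rose and 7 fell (18.4%, against 7.73% of all genes), with a median of -0.26. Slfn2 (-0.42 ± 0.05), which guards T cell quiescence, and Ifi203 (-0.44 ± 0.09) kept the call under every alternative. The count was 3 without any 1 of NaCl 2, NaCl 3 and the 3 lactate libraries.

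**Figure D2:**
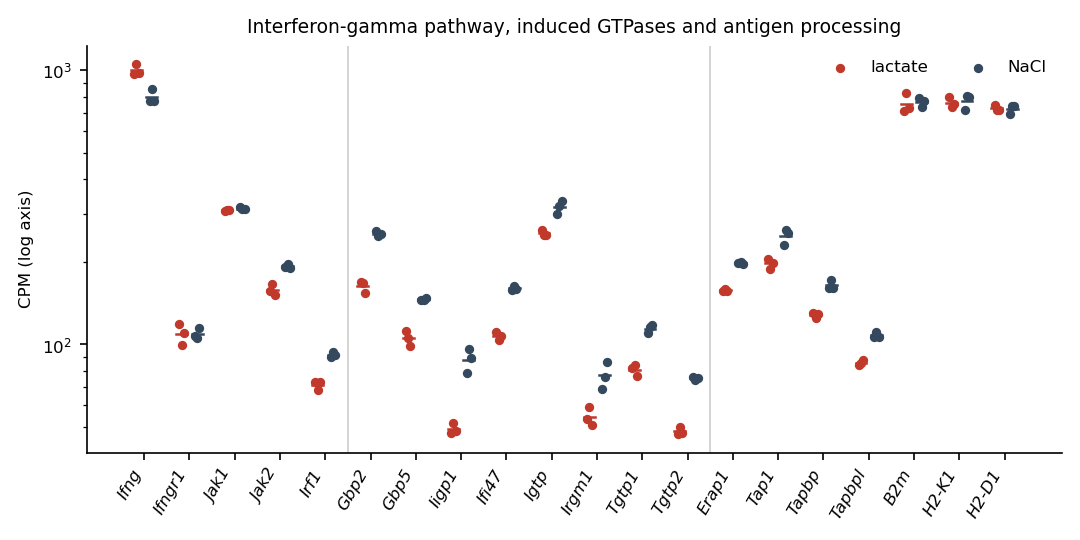
CPM on a log axis for 20 genes in lactate (red, left) and NaCl (dark blue, right) libraries; points are the 3 libraries of a group and bars their means. Ifng stands higher with lactate, the GTPases lower, and B2m, H2-K1 and H2-D1 overlap.

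Among effector molecules Gzmb and Prf1 rose and several ligands fell. Of 20 cytotoxic granule genes tested, 2 rose and 2 fell, against 3.61% higher and 4.12% lower of all genes; 1 rose without NaCl 1 or lactate 2, and 3 without NaCl 3. Gzmb (ENSMUSG00000015437), granzyme B, had 6131, 6641 and 5906 CPM with lactate, against 4321, 4679 and 5367 CPM with NaCl. The groups did not overlap, and Gzmb rose by 0.38 ± 0.07 (adjusted p = 0.00336). Prf1, perforin, had 149, 159 and 154 CPM with lactate and 109, 135 and 133 CPM with NaCl, and rose by 0.30 ± 0.08 (adjusted p = 0.025). Its call was lost without NaCl 1, lactate 2 or lactate 3, with an adjusted p of up to 0.115. Tnf, with 56.07, 53.48 and 50.33 CPM with lactate and 50.62, 53.02 and 47.43 CPM with NaCl, overlapped between the groups (adjusted p = 0.546).

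Of 22 cytokines and death ligands tested, 2 rose and 7 fell (40.9% called, against 7.73% of all genes), with a median of -0.18. Penk (ENSMUSG00000045573, chr4:4133536-4138815), which encodes the precursor of the enkephalin peptides, had 15.6, 16.5 and 14.2 CPM with lactate, against 30.9, 28.3 and 25.5 CPM with NaCl. It fell by 0.88 ± 0.09 (adjusted p = 3.92e-05), and the groups lay well apart. Tnfsf4 (ENSMUSG00000026700), or OX40 ligand, had 19.0, 19.0 and 20.3 CPM with lactate and 33.8, 29.9 and 25.7 CPM with NaCl. It fell by 0.62 ± 0.08 (adjusted p = 0.000297). Tnfsf8 (ENSMUSG00000028362), or CD30 ligand, had 94.8, 95.2 and 92.7 CPM with lactate and 149, 132 and 118 CPM with NaCl. It fell by 0.50 ± 0.07 (adjusted p = 0.000395), and in Tnfsf4 and Tnfsf8 the NaCl libraries were the more spread. Tnfsf11 (-0.32 ± 0.07), or RANKL, fell as well, but not without NaCl 1 (adjusted p of up to 0.0524 over the alternatives). The count of members that fell was 4 without NaCl 1, NaCl 2 or lactate 2.

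**Figure D3:**
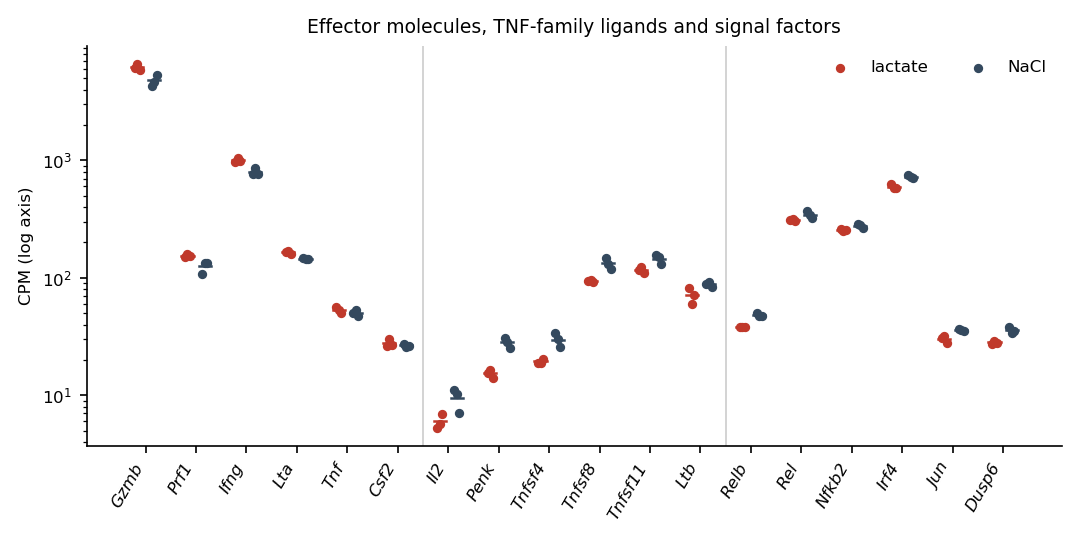
CPM on a log axis for 18 effector molecules, ligands and signal factors in lactate (red, left) and NaCl (dark blue, right) libraries; points are the 3 libraries of a group and bars their means. Gzmb and Ifng stand higher with lactate, Penk, Tnfsf4 and Tnfsf8 lower, and Tnf overlaps.

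Of 43 activation and receptor-signal factors tested, 1 rose and 9 fell, against 3.61% and 4.12% of all genes. Relb (ENSMUSG00000002983), a subunit of the alternative NF-kappaB pathway, had 38.1, 38.4 and 37.8 CPM with lactate, against 50.0, 47.3 and 47.5 CPM with NaCl. It fell by 0.34 ± 0.05 (adjusted p = 0.000853), with no overlap. Irf4 (ENSMUSG00000021356), induced in step with T cell receptor signal strength, had 626, 578 and 578 CPM with lactate and 750, 718 and 703 CPM with NaCl. It fell by 0.29 ± 0.04 (adjusted p = 0.00106). Dusp6 (-0.34 ± 0.06), a phosphatase of ERK, and Jun (-0.26 ± 0.05), a subunit of AP-1, fell too. The immediate early gene Nr4a1 stood at -0.20 ± 0.07 (adjusted p = 0.0725). The count that fell was 5 without NaCl 1, NaCl 2 or lactate 3.

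In the T cell receptor and its coreceptors, 1 of 26 tested rose and 5 fell (23.1% called, against 7.73% of all genes). Cd5 (ENSMUSG00000024669), which damps receptor signals, had 291, 311 and 305 CPM with lactate, against 358, 359 and 356 CPM with NaCl. It fell by 0.24 ± 0.04 (adjusted p = 0.00066), and its relative Cd6 fell by 0.23 ± 0.04. The count that fell was 3 without NaCl 1 or NaCl 3 and 2 without NaCl 2, lactate 2 or lactate 3.

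Of 19 inhibitory receptors and ligands tested, 0 rose and 5 fell (26.3%, against 7.73% of all genes). The 5 included Cd96 (-0.38 ± 0.05), Adora2a (-0.35 ± 0.05), an adenosine receptor, and Btla (-0.27 ± 0.04). Pdcd1, which encodes PD-1, had 88.2, 80.6 and 91.1 CPM with lactate and 97.0, 94.9 and 93.8 CPM with NaCl (adjusted p = 0.0566).

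Of 30 naive and memory genes tested, 3 rose and 6 fell (30.0% called, against 7.73% of all genes). Only 1 rose without NaCl 2, lactate 1 or lactate 3. Il7r (ENSMUSG00000003882, chr15:9506159-9529941), the interleukin-7 receptor, had 103, 93.5 and 92.9 CPM with lactate, against 61.3, 61.0 and 64.9 CPM with NaCl, a rise of 0.63 ± 0.06 (adjusted p = 1.18e-05). Ccr7 (-0.27 ± 0.04), the lymph node homing receptor, Cd27 (-0.29 ± 0.04), a costimulatory receptor, and Bach2 (-0.21 ± 0.04), a repressor of effector genes, fell. Tcf7 rose by 0.15 ± 0.04 (adjusted p = 0.034), but lost the call without any 1 library, with an adjusted p of up to 0.157.

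Zbtb7b (ENSMUSG00000028042, chr3:89377644-89393673), which encodes ThPOK, the factor of CD4 lineage choice, had the largest rise in a ranking of called genes. The ranking took genes whose mean log2 CPM was 3 or more and whose groups did not overlap, with predicted names left out. Zbtb7b had 16.46, 16.04 and 15.55 CPM with lactate, against 9.21, 9.56 and 11.14 CPM with NaCl. The rise was 0.69 ± 0.09 (adjusted p = 0.000387) and the groups did not overlap. Zbtb7b is expressed in CD4 T cells. Cd4 itself had 0.490, 0.545 and 0.304 CPM with lactate and 0.421, 0.608 and 0.462 CPM with NaCl, which overlapped. The sum of the CD4 T cell markers was mostly Foxp3. What part CD4 T cells had in the rise of Zbtb7b was not tested.

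The 10 largest rises in that ranking also held Atp2b4 (0.68 ± 0.10), a plasma membrane calcium pump, and Il7r and both mitochondrial ribosomal RNAs, described with their lists. The others were Slc35d3 (0.60 ± 0.10), Ckb (0.60 ± 0.11), brain-type creatine kinase, Vat1 (0.58 ± 0.05), Acsf2 (0.57 ± 0.07), an acyl-CoA synthetase, and Neb (0.56 ± 0.11), or nebulin. Atp2b4 had 17.2, 19.1 and 18.6 CPM with lactate and 12.1, 11.4 and 10.8 CPM with NaCl. By the same rule the 10 largest falls included Penk, Iigp1, Ccn1 (-0.81 ± 0.09), a matricellular protein, and Kcnk10 (-0.72 ± 0.09), a potassium channel. The others were Serpina3f (-0.65 ± 0.09), which has near-identical copies and is uncertain, Tgtp2, Arc (-0.64 ± 0.10), a cytoskeletal protein induced by activity in neurons, Gbp2, Phlda3 and Tnfsf4. Ccn1 had 9.25, 9.52 and 8.35 CPM with lactate, against 15.0, 15.6 and 17.1 CPM with NaCl. All 3 lactate libraries lay below the NaCl libraries. P2rx7, the ATP-gated channel, was low in level: it had 0.876, 0.655 and 0.939 CPM with lactate and 2.08, 2.25 and 1.70 CPM with NaCl, a fall of 1.29 ± 0.22 (adjusted p = 0.00242).

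Of 29 p53 targets tested, 0 rose and 8 fell (27.6%, against 7.73% of all genes), with a median of -0.16. Phlda3 (ENSMUSG00000041801), a repressor of AKT, had 15.7, 13.9 and 17.7 CPM with lactate, against 26.0, 25.1 and 21.7 CPM with NaCl. It fell by 0.62 ± 0.12 (adjusted p = 0.00596). Bbc3 (-0.49 ± 0.09), or PUMA, Bax (-0.33 ± 0.06), both promoters of cell death, and Cdkn1a (-0.28 ± 0.05), the cyclin kinase inhibitor p21, fell as well. Trp53 itself stood at -0.12 ± 0.04 (adjusted p = 0.0905). The count was 5 without NaCl 1.

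In growth and ribosome genes, 5 of 36 ribosome biogenesis members rose and 2 fell (19.4% called, against 7.73% of all genes). Ncl (ENSMUSG00000026234), or nucleolin, had 3419, 3963 and 3497 CPM with lactate, against 2969, 2908 and 3092 CPM with NaCl, a rise of 0.28 ± 0.06 (adjusted p = 0.0081). Noc2l, a nucleolar protein, rose by 0.22 ± 0.03 (adjusted p = 0.000965). Without NaCl 2 or lactate 2, 3 members rose; 0 fell without NaCl 1, NaCl 2 or lactate 2, and 1 without lactate 1. Of 20 aminoacyl-tRNA synthetases 3 rose and 0 fell (15.0%, against 7.73% of all genes). However, 0 rose without NaCl 1, NaCl 2 or lactate 2 and 1 without lactate 1 or lactate 3. For DNA replication, 0 of 40 tested rose and 1 fell (2.5%, below the 7.73% of all genes). For mitosis, 2 of 30 rose and 0 fell (6.67%, near the 7.73% of all genes). Without NaCl 1, NaCl 2 or lactate 2 the count that rose was 0, and without NaCl 3 or lactate 3 it was 4. The proliferation marker Mki67 did not pass (0.17 ± 0.06, adjusted p = 0.0734), nor did Myc (0.13 ± 0.04, adjusted p = 0.0652).

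The mitochondrial ribosomal RNAs were higher with lactate. The large one, mt-Rnr2 (ENSMUSG00000064339), had 3645, 4249 and 3558 CPM with lactate, against 2331, 2361 and 2565 CPM with NaCl, a rise of 0.66 ± 0.08 (adjusted p = 0.000139). mt-Rnr1 rose by 0.64 ± 0.12 (adjusted p = 0.00366). Both were read from poly(A)-captured RNA. Of 13 mitochondrial mRNAs, 1 rose and 1 fell (15.4% called, against 7.73% of all genes). With no filter on low counts 7 fell. The member that fell, mt-Cytb, stood at -0.32 ± 0.06 (adjusted p = 0.00443). The member that rose, mt-Co1 (0.18 ± 0.05, adjusted p = 0.0447), lost the call without NaCl 1, NaCl 2, lactate 2 or lactate 3 and with the replicate block (adjusted p of up to 0.193 over the alternatives).

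Of 32 tested transporters, enzymes and receptors that handle lactate and pyruvate, 2 rose and 1 fell. The share called, 9.38%, is near the 7.73% of all genes. Slc16a1, or MCT1, had 266, 285 and 281 CPM with lactate, against 295, 291 and 276 CPM with NaCl, and its log2 fold change had a 95% interval of -0.13 to 0.03. Ldha had 2708, 2562 and 2662 CPM with lactate and 2428, 2544 and 2702 CPM with NaCl, with an interval of -0.03 to 0.13. In Slc16a3, or MCT4, the interval was -0.15 to 0.20, and in Mpc1, a subunit of the mitochondrial pyruvate carrier, it was -0.09 to 0.11. Got1, the cytosolic aspartate aminotransferase of the malate-aspartate shuttle, was the member that rose under every alternative: it had 131, 130 and 136 CPM with lactate and 119, 117 and 115 CPM with NaCl (0.18 ± 0.03, adjusted p = 0.00371). Dld rose and Gpr132 fell, but both lost the call without NaCl 1, NaCl 2, NaCl 3, lactate 2 or lactate 3, and Dld also without lactate 1.

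Outside glycolysis, 4 of 30 HIF targets and regulators rose and 3 fell (23.3% called, against 7.73% of all genes). The count that rose was 1 without NaCl 2 and 2 without NaCl 1 or any 1 lactate library. Members called under every alternative included Kdm3a, a histone demethylase, at -0.35 ± 0.05 and Rbpj, the DNA-binding partner of Notch, at 0.22 ± 0.04. Hif1a rose by 0.20 ± 0.04, but not without NaCl 2 (adjusted p of up to 0.0509 over the alternatives). Of 25 lysosomal genes, 4 rose and 2 fell (24.0% called, against 7.73% of all genes). Only 2 rose without NaCl 1, NaCl 2, lactate 1 or lactate 2. The members that rose included Ctsl, a cathepsin, at 0.47 ± 0.06 and Tfeb, which drives lysosomal genes, at 0.37 ± 0.07. Ctsd, another cathepsin, fell and stood at -0.26 ± 0.04.

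**Figure D4:**
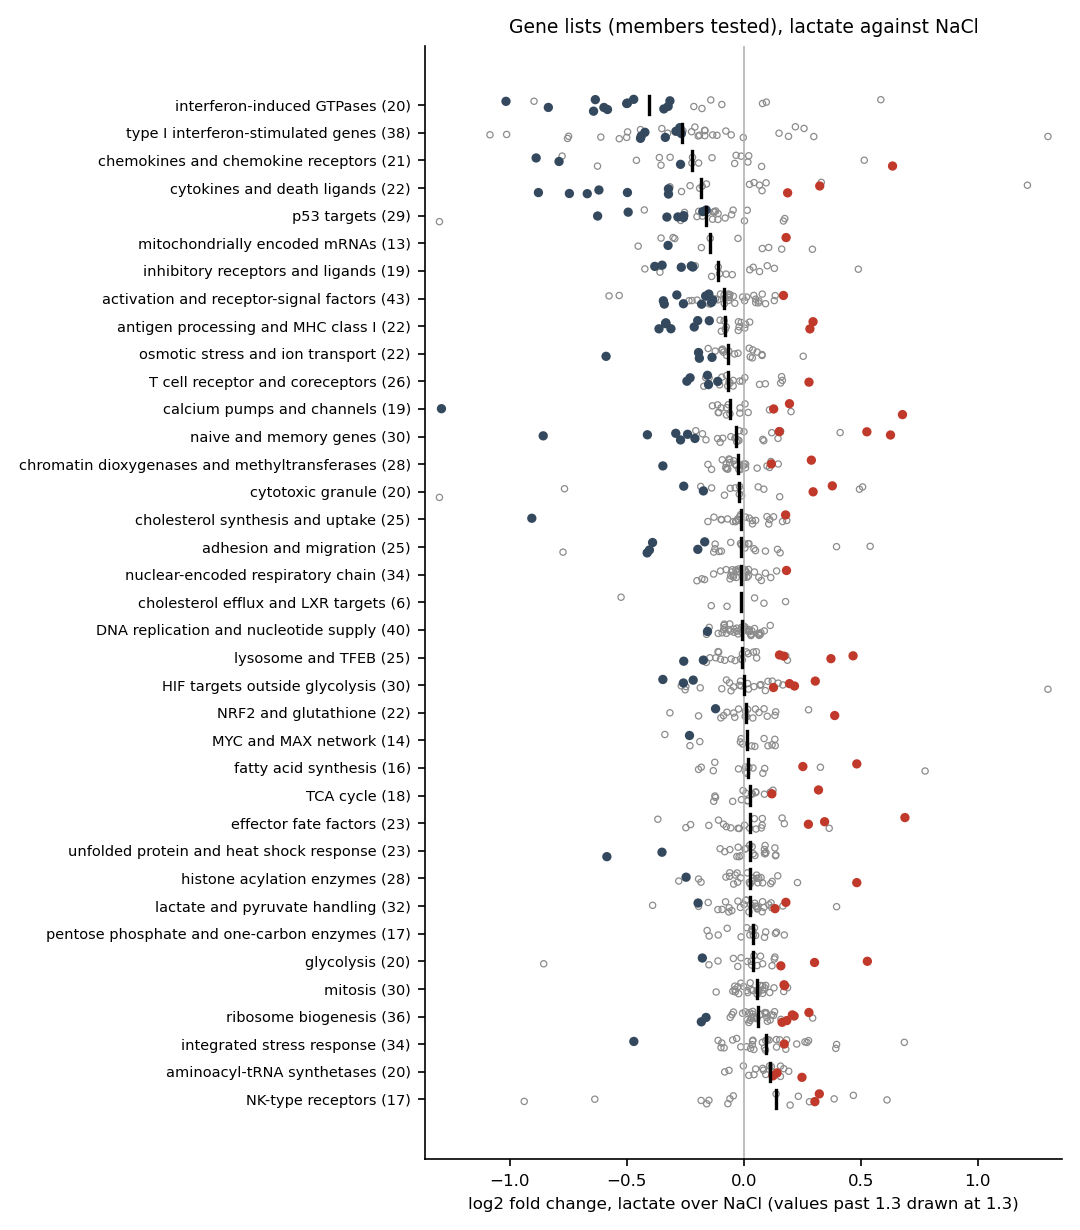
Log2 fold changes, lactate over NaCl, of the tested members of the gene lists shown, each with at least 6; filled red points rose, filled dark blue points fell, open points did not pass the test, points past the axis are drawn at its edge, and black bars are medians. Interferon-induced GTPases have a median of -0.41, and most other medians lie near 0.

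Pyruvate, which differs from lactate by a keto group in place of a hydroxyl group, was given at the same 20 mM over the same time, so the compounds could be compared directly. Lactate and pyruvate libraries differed in 3534 genes (24.0%), 1612 higher (10.9%) and 1922 lower (13.0%) with lactate. Both compounds are also set against the same NaCl libraries below, so those values are not independent. Against NaCl, pyruvate changed 2313 genes (15.7%), 1387 higher (9.4%) and 926 lower (6.28%). Gbp2 had 332, 314 and 312 CPM with pyruvate, above all 3 NaCl libraries, whereas lactate lay below them. The log2 difference of lactate minus pyruvate was -0.97 ± 0.04 (95% interval -1.05 to -0.89, adjusted p = 6.15e-11). Penk was likewise higher with pyruvate than with NaCl (0.87 ± 0.09), and lactate minus pyruvate was -1.75 ± 0.09 (adjusted p = 1.23e-09). For Tnfsf8 lactate minus pyruvate was -1.15 ± 0.07 (adjusted p = 5.4e-09).

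For Vat1 and Gzmb no difference between the compounds passed the test, and for Zbtb7b and Atp2b4 lactate was the higher. Vat1 rose with pyruvate (0.55 ± 0.05) as with lactate, and the difference had a 95% interval of -0.07 to 0.13 (adjusted p = 0.687). For Gzmb the interval was -0.20 to 0.08 (adjusted p = 0.569). Zbtb7b stood at -0.03 ± 0.10 with pyruvate against NaCl, and was higher with lactate than with pyruvate by 0.72 ± 0.09 (adjusted p = 2.79e-05). Atp2b4 was likewise higher with lactate than with pyruvate (0.68 ± 0.10, adjusted p = 7.09e-05). Erap1 was lower with lactate than with pyruvate (-0.36 ± 0.03, adjusted p = 4.86e-07). Ifng was lower with lactate than with pyruvate (-0.35 ± 0.06, adjusted p = 0.000814), although it was higher than NaCl with both.

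Adding Oxyrase to lactate changed 7323 genes (49.7%), 3843 higher (26.1%) and 3480 lower (23.6%). Against NaCl, lactate with Oxyrase changed 7492 genes (50.8%), 3915 higher (26.5%) and 3577 lower (24.3%). Ifi47 fell to 32.8, 35.5 and 33.5 CPM with lactate and Oxyrase, against 111, 104 and 107 CPM with lactate alone (-1.66 ± 0.05, adjusted p = 7.48e-14). Gbp2 fell further as well (-0.68 ± 0.04, adjusted p = 3.27e-10). Penk and Tnfsf8 moved the other way, with 103, 107 and 122 CPM for Penk with lactate and Oxyrase against 15.6, 16.5 and 14.2 CPM with lactate alone (2.84 ± 0.09, adjusted p = 2.01e-13).

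**Figure D5:**
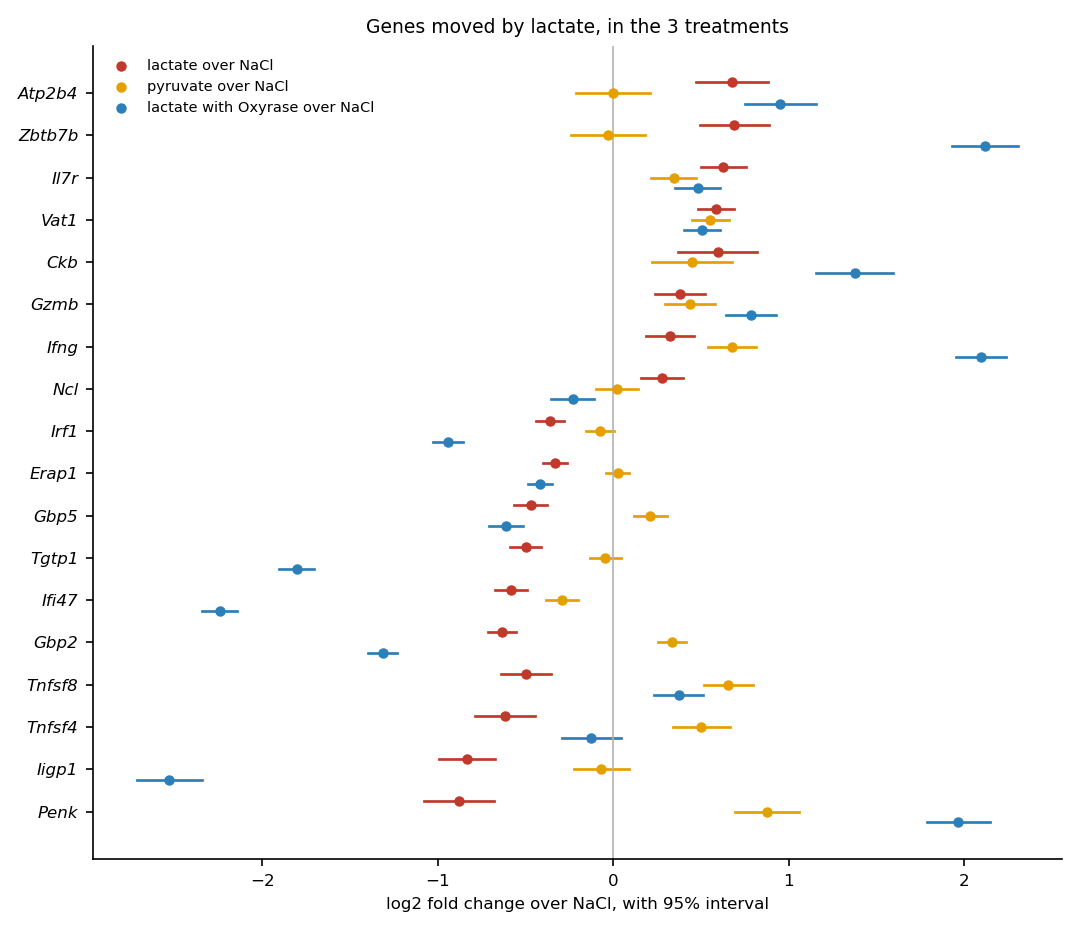
Log2 fold changes over NaCl with 95% intervals for 18 genes under lactate (red), pyruvate (orange) and lactate with Oxyrase (blue), all against the same 3 NaCl libraries. For Gbp2, Penk, Tnfsf4 and Tnfsf8 lactate lies below 0 and pyruvate above it.

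Chromatin accessibility was measured in separate libraries of the same treatments. In ATAC-seq 4857 of 75802 peaks (6.41%) differed between lactate and NaCl, 856 higher (1.13%) and 4001 lower (5.28%). Of 12581 peaks within 1 kb of an end of a tested gene, 2518 differed (20.0%), 2470 lower (19.6%) and 48 higher (0.382%), and their median log2 fold change was -0.13. Leaving out 1 library gave 684 to 11317 called peaks, the fewest without NaCl 2 and the most without NaCl 3; without NaCl 1, lactate 2 and lactate 3 the counts were 1262, 2279 and 1147. Of 11 such peaks at the GTPases that fell, 1 was lower. The peak at Gbp2 had 55.7, 57.0 and 57.3 CPM with lactate and 58.9, 56.5 and 55.1 CPM with NaCl, which overlapped (adjusted p = 0.99). Of 17 peaks at the antigen processing genes that changed, 9 were lower. Among the 9 was a peak at H2-Q6 (-0.36 ± 0.09, adjusted p = 0.0131), whose RNA rose. At Tapbp all 3 peaks were lower, the first having 23.9, 20.8 and 19.5 CPM with lactate and 35.0, 37.6 and 26.4 CPM with NaCl (-0.62 ± 0.10, adjusted p = 0.000299). At Irf1 the peak had 46.0, 43.1 and 43.0 CPM with lactate and 59.2, 74.1 and 48.2 CPM with NaCl (-0.46 ± 0.10, adjusted p = 0.00318). Of 10 peaks at the p53 targets that fell, 4 were lower, among them the peak at Bbc3 (-0.47 ± 0.10, adjusted p = 0.00162). These shares are read beside the 19.6% of all gene-end peaks that were lower. Whether a single named peak kept its call without 1 library was not tested. RNA and peaks did not always move together. With 2470 gene-end peaks lower and 48 higher, a lower peak at a gene that rose is not particular to that gene. How often the directions differed was not counted. The peak at Zbtb32 was lower (-0.40 ± 0.10, adjusted p = 0.0107), although its RNA rose. That peak had 44.9, 43.3 and 38.9 CPM with lactate and 62.5, 61.1 and 44.1 CPM with NaCl, which overlapped. At Tnfsf8, whose RNA fell, a peak was higher (0.30 ± 0.10, adjusted p = 0.0445), and its other peak did not pass the test (adjusted p = 0.339).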

How the data were processed

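Mouse CD8 T cell RNA-seq (12 libraries, of which 6 are compared here) and ATAC-seq (12 libraries) were used as deposited. The authors deposited estimated counts per gene, named as adjusted counts, with the adjustment not given in the sources used here. Per the submitters' processing notes RSEM 1.2.12, Bowtie2 2.2.0 and edgeR 3.20.9 were among the tools and mm10 was the build. The deposited ATAC values are read counts in peaks, per the file headers after removal of duplicates and mitochondrial reads; peaks were not redefined here. Whole values (tolerance 1e-09) made up 99.2% of non-zero RNA values. A non-whole value above 1 occurred in 460 genes, of which 448 were at 0 throughout 1 replicate number.

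Estimated counts were rounded. After filterByExpr and TMM scaling, edgeR 4.0.16 (R 4.3.3) fitted a quasi-likelihood model to all 12 libraries, which share 1 estimate of the spread, with Benjamini-Hochberg adjustment at 0.05. The SE is the log2 fold change over the square root of F. Mean log2 CPM used a prior count of 2. Promoter letters came from the RefSeq table of GRCm38.p6. The members and the 45 lists (39 without cell markers) were chosen with earlier results of these data known. Genes were named by a rule: the 10 highest and 10 lowest called genes whose mean log2 CPM was 3 or more and whose groups did not overlap (predicted names left out), 5 of each below that level, up to 6 called members of smallest p from lists with at least 3, every lactate and pyruvate handling gene, a set of fixed genes and the 10 most abundant called genes. B2m, H2-K1, H2-D1, Ighm and Gm10052 were named outside it. The fit was tested on simulated data. Intervals are 95%, and a group at 0 was set to a floor of 3 counts per library, which covers counting error only. Alternatives changed scaling, filter, threshold, samples, tool (DESeq2 1.42.0), replicate term and left out each library in turn. The threshold was changed only for the total counts of called genes. The alternatives for named genes and list members leave it out. Of the interferon-gamma pathway list, 1 member and the list's counts are not reported here.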

Additional observations from a re-analysis of the deposited data

How the results depend on the processing

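Against 1140 genes called for lactate against NaCl (532 higher, 608 lower), no filter on low counts gave 1724 (863 higher, 861 lower). An adjusted p under 0.01 gave 366 (142 higher, 224 lower), and under 0.1 gave 2001 (958 higher, 1043 lower). Scaling by RLE gave 1143, upper quartile 1150, the 6 libraries alone 994 and DESeq2 1304 genes. Replicate numbers are used only as names: the correlations of deviations from the group means were -0.14, -0.21 and -0.19 for the 3 numbers, but in counts adjusted for replicate number such a check could not show pairing. With the replicate block 671 genes were called (288 higher, 383 lower); the block gave 2879 genes for lactate against pyruvate, 6740 for Oxyrase added to lactate and 6775 peaks. Leaving out 1 library gave 451 to 1124 genes (170 to 542 higher, 281 to 582 lower) and 684 to 11317 peaks; these settings also have fewer samples. For lactate against pyruvate the range was 2547 to 2940, and for Oxyrase added to lactate 6545 to 6845. Of 135 named genes called, 76 were called under all 12 alternatives, and 0 changed sign. The cause of the differences was not tested. Depth limits genes of low level, where large folds rest on few counts.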

Other observations

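At very low levels a few transcripts were listed at 0 in all 3 NaCl libraries. Phldb2 had 0.385, 0.491 and 0.609 CPM with lactate, a mean of 4.95 times NaCl set at a floor of 3 counts per library. It was also found with pyruvate, at 0.488, 1.14 and 0.589 CPM. Snap25, a synaptic fusion protein, had 0.560, 0.355 and 0.406 CPM with lactate, a mean of 4.40 times the same floor. It had 0.344, 0.531 and 0.901 CPM with pyruvate. Neither ratio allows for the counting error of the lactate libraries. DESeq2 gave no adjusted p for either gene, so neither was called there.

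The predicted gene Gm10052, chosen after its values were seen, had 274, 50.5 and 77.6 CPM with lactate and 0 in all 3 NaCl libraries. It also had 0, 50.4 and 29.6 CPM in the pyruvate libraries and 0, 26.3 and 0 CPM in the lactate and Oxyrase libraries, so that libraries of 1 group differed.

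Protein-coding genes were called in 8.81% of 11909 tested and long non-coding genes in 2.72% of 626. The share called was 2.09% in the tenth of genes with the lowest mean level and 12.5% in the tenth with the highest.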
